A study of Mus musculus with 24 samples.

Results

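The growth hormone, STAT5 and IGF1 axis was followed in mouse liver through 10 genes chosen by name from its known biology, out of 23972 genes counted. They are *Ghr*, *Jak2*, *Stat5a*, *Stat5b*, *Socs2*, *Cish*, *Igf1*, *Igfals*, *Bcl6*, and *Cux2*, and all 10 were measured in all 24 liver RNA-Seq libraries. The mice were female, carried floxed *Lmna* on both alleles (loxP sites flank exons 10 and 11), and were 12 to 14 weeks old at the start. They lived at 22°C and ate a diet with 60% fat, begun 4 weeks before treatment. Controls (genotype Lmna.WT, *Lmna* fl/fl *Adipoq*-Cre-) lack Cre, and LmnaADKO mice (genotype Lmna.KO, *Lmna* fl/fl *Adipoq*-Cre+) express it from an adiponectin transgene that acts in adipocytes and in adipogenic progenitors of the marrow, so that the animals are lipodystrophic and hepatocytes are not the targeted cells. Each genotype was given vehicle or the treatment labelled Rescue, read here from the paper as an adeno-associated virus expressing mouse FGF21, and livers were taken 8 weeks later. The groups hold 7 vehicle-treated controls, 3 FGF21-treated controls, 6 vehicle-treated LmnaADKO mice, and 8 FGF21-treated LmnaADKO mice, each library carrying its own animal number. Levels are given as CPM, the counts of a gene scaled to a common library size by TMM, and libraries are numbered within each group by ascending animal number.

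Growth hormone from the pituitary binds the receptor GHR on hepatocytes, the receptor-bound kinase JAK2 phosphorylates the factors STAT5A and STAT5B, and these enter the nucleus and switch on target genes. Among the targets are *Igf1*, the main circulating growth factor of the axis, *Igfals*, whose product holds IGF1 in a long-lived serum complex, and *Socs2* and *Cish*, whose products damp the receptor signal. Female mice secrete growth hormone in a nearly continuous pattern and males in pulses, and this difference sets much of the sex bias of liver genes. BCL6, a repressor that competes with STAT5 for DNA, is the more abundant in male liver, whereas CUX2 is a female-specific liver factor that activates female-biased and represses male-biased genes.

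Libraries held between 19863304 and 21510054 counts. *Lmna*, whose deletion is not driven in hepatocytes, ranged from 15.7 to 22.1 CPM in vehicle-treated controls and from 23.6 to 31.0 CPM in vehicle-treated LmnaADKO livers, so liver levels do not check the genotype labels. *Fgf21* averaged 4.01 ± 3.18 CPM (SD, n = 7) in vehicle-treated and 4.78 ± 2.29 CPM (SD, n = 3) in FGF21-treated controls, and 7.99 ± 2.48 CPM (SD, n = 6) and 5.36 ± 2.41 CPM (SD, n = 8) in the LmnaADKO groups, so its counts do not set the treated groups apart. *Xist*, the noncoding RNA of the inactive X chromosome, had 1 count in vehicle-treated control library 6 against 2734 to 7545 counts in the other 23 libraries, although all are labelled female. Y-linked genes were not analysed here. The hepatocyte markers summed to 77200 to 135000 CPM in vehicle-treated controls and 67000 to 102000 CPM in vehicle-treated LmnaADKO livers, and 2 of 7 were called lower, *Cps1* and *Serpina1c*. The 5 cholangiocyte markers summed to 27.0 to 51.2 CPM against 85.8 to 196 CPM, and 1 of them, *Spp1*, was called higher. Of 5 stellate cell markers, 1 (*Lrat*) was called higher, as was 1 of 4 markers of sinusoidal endothelium. Neither list moved 1 way. At an unadjusted p under 0.05 in edgeR, 2 stellate cell markers were higher and 2 lower. The same held for 2 and 2 markers of sinusoidal endothelium. The stellate cell markers summed to 75.6 to 137 CPM in vehicle-treated controls and 84.8 to 139 CPM in vehicle-treated LmnaADKO livers. FGF21-treated control library 3, FGF21-treated LmnaADKO library 7, and vehicle-treated control library 3 stood apart in how their counts varied with gene length, with slopes of -0.289, -0.331, and -0.154 against -0.109 to 0.128 elsewhere. The part of these markers and libraries in the results below was not tested, except where a value without the library is given.

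Genes can be compared in level only per length, here as CPM per kilobase of the union of annotated exons. This union counts every annotated isoform, expressed or not, so the order of the genes depends on it. It was 3167 bases for *Igfals* and 9904 for *Igf1*, which averaged 174 and 338 CPM in vehicle-treated controls. In vehicle-treated controls, *Igfals* was the most abundant member on this scale at 54.8 ± 7.06 CPM per kb (SD, n = 7), ahead of *Igf1* at 34.1 ± 4.58 and *Ghr* at 32.9 ± 4.43, which did not differ beyond their spread. *Stat5b* followed at 10.4 ± 1.33 CPM per kb and *Cux2* at 5.06 ± 1.87. The feedback gene *Cish* stood at 3.69 ± 2.43 CPM per kb, *Jak2* at 2.76 ± 0.289, *Stat5a* at 2.23 ± 0.483, *Socs2* at 1.47 ± 0.670, and *Bcl6* at 1.14 ± 0.351, and from *Cux2* to *Bcl6* each neighbouring pair lay within its spread. In vehicle-treated LmnaADKO livers the order was different, with *Ghr* first at 35.8 ± 4.44 CPM per kb (SD, n = 6), *Igfals* at 18.9 ± 4.71, *Igf1* at 18.4 ± 3.32, and *Cux2* last at 0.212 ± 0.194. *Stat5b* thus exceeded *Stat5a* in all groups, and its level per length was 3.57 to 6.64 times that of *Stat5a* across vehicle-treated control libraries. The paralogs are close in sequence, so that counting could divide some of their reads wrongly, and 72 exonic bases of *Stat5a* overlap *Stat3* on the other strand. *Cish* overlaps a pair of annotated noncoding genes on the other strand, by 479 and 261 exonic bases. The libraries were made to keep strand, but the strand setting of the counting is not given in the sources used here.

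STAT5 proteins bind the palindrome TTCNNNGAA, which BCL6 can also occupy. RefSeq promoter windows on GRCm38.p6, from 250 bases before to 50 bases after each annotated start, were searched for it, a match reading the same on either strand. Of 32851 windows, 8.30% hold the motif and 0.457% hold it at least 2 times. Windows exist for 9 members (all but *Socs2*), 16 in all, and 5 of these windows, of the 3 members *Cish*, *Igfals*, and *Bcl6*, hold it. The matching stretches of the genes that the vehicle comparison below called lower, *Cish* and *Igfals*, and the *Bcl6* window with 3 matches are shown 5′ to 3′ on the gene's strand, with the matches in capitals.
*Cish*, chr9:107296655-107296682, plus strand: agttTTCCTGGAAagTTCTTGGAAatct
*Igfals*, first start, chr17:24877594-24877631, plus strand: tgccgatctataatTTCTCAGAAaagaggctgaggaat
*Igfals*, second start, chr17:24878158-24878196, plus strand: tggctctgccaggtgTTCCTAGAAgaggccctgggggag
*Bcl6*, chr16:23981348-23981466, minus strand: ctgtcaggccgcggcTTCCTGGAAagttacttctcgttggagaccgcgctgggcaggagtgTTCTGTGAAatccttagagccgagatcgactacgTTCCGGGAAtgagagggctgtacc
The *Cish* matches begin at bases 1 and 12 counted from the start itself, within annotated exon sequence. Those of *Igfals* begin at -236 from its first start and -58 from its second, and the window of its last start, chr17:24878497-24878796, has no match. Those of *Bcl6* begin at -168, -122, and -88. The windows of *Igf1*, *Cux2*, *Ghr*, *Jak2*, *Stat5a*, and *Stat5b* have no match to these letters, which describes these windows only.

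**Figure D1:**
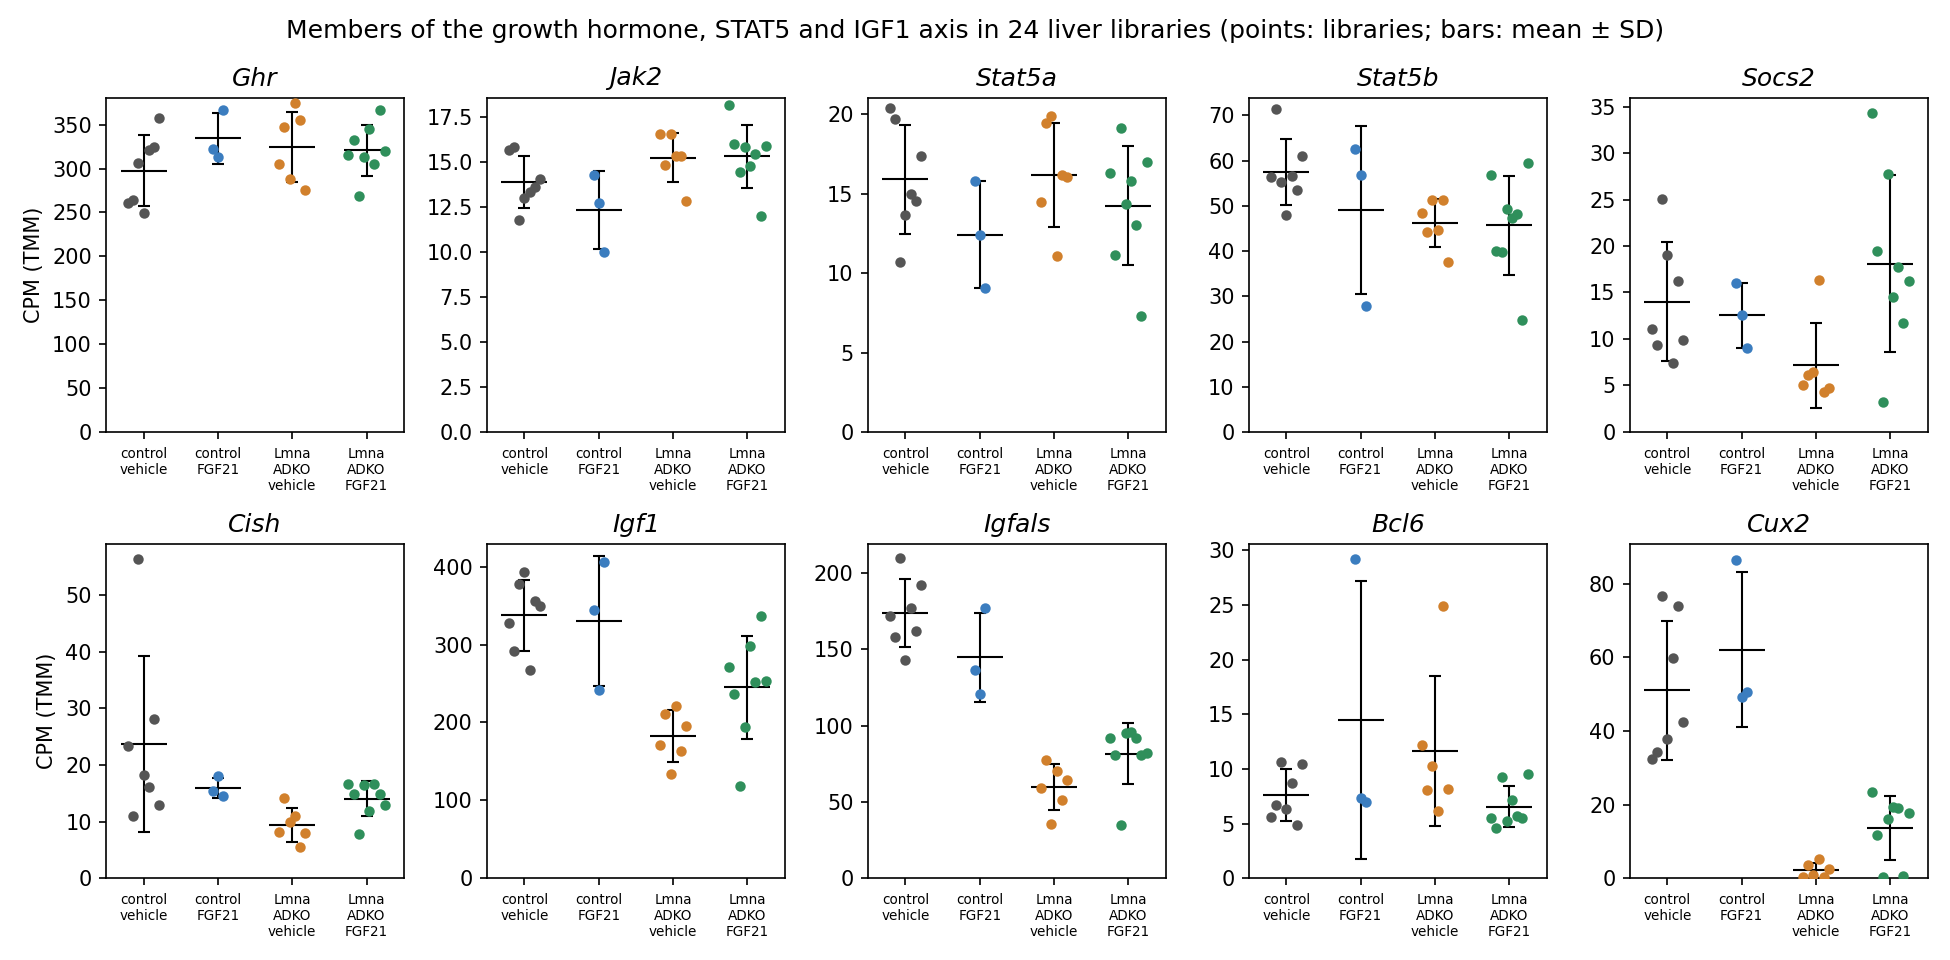
Level of each of the 10 genes in CPM (vertical axis, from 0, its range set per gene) in every library of the 4 groups, with the group mean and SD as black bars. *Ghr*, *Jak2*, and *Stat5a* sit at similar heights in all groups, whereas the vehicle-treated LmnaADKO points of *Igf1*, *Igfals*, and *Cux2* lie below every vehicle-treated control point.

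With vehicle, the outputs of the axis were lower in LmnaADKO liver than in control liver while the receptor and its kinase were not called. *Igf1*, *Igfals*, *Cish*, and *Cux2* fell, by 1.85-fold, 2.91-fold, 2.50-fold, and 24-fold, and *Ghr*, *Jak2*, *Stat5a*, *Stat5b*, *Socs2*, and *Bcl6* were not called. A call needs an adjusted p under 0.05 in edgeR and more than a 1.5-fold difference. These 4 of 10 genes compare with 8.48% of all genes called, 3.36% lower and 5.12% higher. The median log2 fold change of the 10 genes was -0.60, beside 0.003 over all genes.

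The receptor and the signal transducers came first in this comparison. *Ghr*, which codes for the receptor, ran from 249.9 through a median of 306 to 357 CPM in vehicle-treated controls and from 275 through 326.5 to 374 CPM in vehicle-treated LmnaADKO livers. The ranges overlap over most of their length, and the log2 fold change of 0.12 had a 95% interval from -0.10 to 0.34. For *Jak2* the levels were 11.8 to 15.8 CPM in controls and 12.9 to 16.5 CPM in LmnaADKO livers, with a log2 fold change of 0.13 and an interval from -0.08 to 0.34. *Stat5a* lay at 10.7 to 20.4 CPM and 11.1 to 19.9 CPM, and the interval of its log2 fold change, -0.35 to 0.40, was wider than these. Levels of *Stat5b*, the main hepatic STAT5, were 47.9, 56.4, and 71.5 CPM (lowest, median, highest) in controls and 37.6, 46.5, and 51.3 CPM in LmnaADKO livers. Most LmnaADKO livers were thus below most controls, yet the groups overlap, and the log2 fold change of -0.31 (interval -0.65 to 0.03) had an adjusted p of 0.224 in edgeR. Changes of 1.5-fold lie outside the intervals of *Ghr*, *Jak2*, and *Stat5a*, but not outside that of *Stat5b*.

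The feedback genes were lower in most LmnaADKO livers, and 1 of them was called. *Cish*, coding for a SOCS-family inhibitor of the receptor, had 10.97, 18.1, and 56.4 CPM (lowest, median, highest) in vehicle-treated controls and 5.46, 9.11, and 14.2 CPM in vehicle-treated LmnaADKO livers. The groups overlap, and the highest control was library 3, of those that stood apart. The log2 fold change was -1.32 ± 0.309 (SE), with an adjusted p of 0.005, and without that library it was -0.95 with an adjusted p of 0.00675. The call was lost with the number series of the animals (their labels have 3 or 4 digits) as a covariate. The value was then -1.21, with an adjusted p of 0.0564 in edgeR. Labels of 3 digits were held by 6 of 7 vehicle-treated controls and 1 of 6 vehicle-treated LmnaADKO livers. Series and genotype thus largely coincide in this comparison, and the covariate cannot separate them well. *Socs2*, whose product is the main brake on growth hormone signaling and body growth, had 7.42, 11.1, and 25.1 CPM in controls. In LmnaADKO livers 5 libraries had 4.35 to 6.43 CPM and library 4 had 16.4 CPM. The 5 lie below every control, and library 4 lies within the control range. The log2 fold change of -0.97 (interval -1.85 to -0.08) was not called, with an adjusted p of 0.144 in edgeR. Without LmnaADKO library 4 it was -1.39 with an adjusted p of 0.0268. Without control library 3 it was -0.76 with an adjusted p of 0.286. Of 13 omissions of a single library, 1 gave a call. Both libraries had the highest *Socs2* of their group. Leaving out either moves the fold change by construction, so the call without library 4 is no separate support for a fall. DESeq2 called *Socs2* lower with all libraries in place, with an adjusted p of 0.0422.

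The secreted products fell together. *Igf1* had 267, 350.0, and 393 CPM (lowest, median, highest) in vehicle-treated controls and 133, 183.5, and 222 CPM in vehicle-treated LmnaADKO livers, with no overlap. Its log2 fold change was -0.89 ± 0.173 (SE), with an adjusted p of 0.000613. *Igfals*, the acid-labile subunit of the serum IGF complex, had 143, 172, and 210.2 CPM in controls and 35.7, 61.7, and 77.7 CPM in LmnaADKO livers, and here too every LmnaADKO library lay below every control. The log2 fold change was -1.54 ± 0.183 (SE), with an adjusted p of 1.59e-06. Groups that do not overlap in the lower direction were found for 3.73% of all genes and for 3 of the 10 members, *Igf1*, *Igfals*, and *Cux2*. Vehicle-treated LmnaADKO library 3 had the lowest *Igf1* and *Igfals* of its group. It also had the highest cholangiocyte marker sum of the group, 196 CPM, and the highest stellate cell marker sum, 139 CPM. Without this library the log2 fold changes were -0.82 and -1.43, both still called. In bulk liver, fewer hepatocytes and less RNA per hepatocyte cannot be told apart.

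Of the factors tied to the sex pattern of the liver, *Cux2* fell and *Bcl6* was not called. *Cux2* had 32.4, 42.4, and 76.6 CPM (lowest, median, highest) in vehicle-treated controls. In vehicle-treated LmnaADKO livers it had 0.463, 3.61, 0.751, 5.16, 0.417, and 2.44 CPM in libraries 1 to 6. All 6 are below every control, and among themselves they differ by more than any other member does within a group of vehicle-treated livers, with an SD of 1.46 on the log2 scale. The log2 fold change was -4.58 ± 0.750 (SE), with an adjusted p of 0.000261. *Bcl6* had 4.86, 6.66, and 10.7 CPM in controls and 6.14, 9.24, and 24.9 CPM in LmnaADKO livers, the highest being library 5. The ranges overlap, and the log2 fold change of 0.61 (interval -0.10 to 1.33) was not called, with an adjusted p of 0.264, and it was 0.24 without library 5. Vehicle-treated control library 6, the one with 1 *Xist* count, had 74.0 CPM of *Cux2* and 28.1 CPM of *Cish*, within the range of the other controls, and without it the 4 calls were the same.

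**Figure D2:**
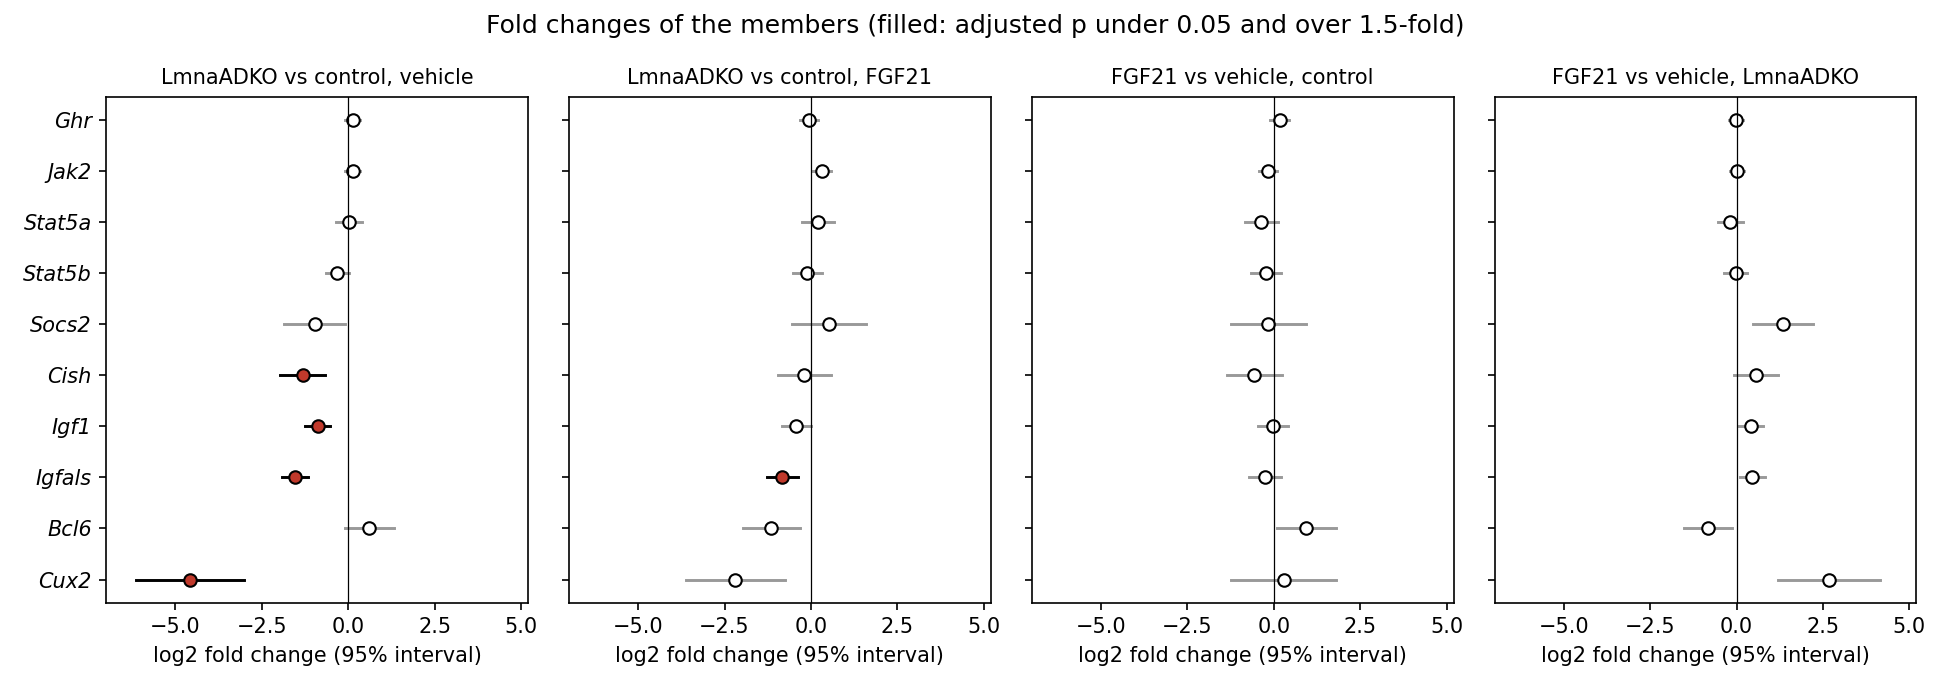
Log2 fold change (horizontal axis) of each gene in the 4 comparisons, with points for the estimate, lines for the 95% interval from its standard error, and filled points for calls. The 4 filled points of the vehicle comparison are *Cish*, *Igf1*, *Igfals*, and *Cux2*, and *Igfals* is the only filled point elsewhere.

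With FGF21 in both genotypes, 1 of the 10 genes, *Igfals*, was called lower in LmnaADKO than in control liver, beside 2.88% of all genes called, 1.26% lower and 1.61% higher. *Igfals* had 136.5, 121, and 177 CPM in the 3 FGF21-treated controls and 35.2, 86.7, and 95.6 CPM (lowest, median, highest) in the 8 FGF21-treated LmnaADKO livers. Each LmnaADKO library was below each control, and the log2 fold change was -0.83 ± 0.207 (SE), a 1.77-fold difference with an adjusted p of 0.0206. Without FGF21-treated control library 3, which stood apart and had the highest *Igfals* of its group, the value was -0.66 with an adjusted p of 0.196. *Cux2* had 86.4, 49.2, and 50.7 CPM in the controls and 0.373, 17.0, and 23.4 CPM in LmnaADKO livers. These groups do not overlap either, as in 2.37% of all genes in the lower direction, yet the log2 fold change of -2.19 (interval -3.62 to -0.76) had an adjusted p of 0.0812. *Igf1* was at 344, 241, and 407 CPM in the controls and at 119, 253, and 337 CPM in LmnaADKO livers, so that the ranges overlap, with a log2 fold change of -0.43 (interval -0.85 to -0.01) and an adjusted p of 0.274. *Cish* and *Socs2*, both at or below 18.0 CPM in the 3 controls, had log2 fold changes of -0.19 (interval -0.95 to 0.57) and 0.53 (interval -0.54 to 1.60). *Bcl6* had 29.2, 7.34, and 6.93 CPM in the controls and 4.58, 5.61, and 9.50 CPM in LmnaADKO livers, and its log2 fold change of -1.15 (adjusted p of 0.119) became -0.12 without the control at 29.2 CPM. *Ghr*, *Jak2*, *Stat5a*, and *Stat5b* had log2 fold changes of -0.06, 0.31, 0.20, and -0.10, none of them called.

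FGF21 against vehicle gave no call among the 10 genes in either genotype. In LmnaADKO livers edgeR called 0 of all 23972 genes, with 1608 of them, 6.71%, at an unadjusted p under 0.05, whereas DESeq2 called 15. Of the 10 genes, 5 were at an unadjusted p under 0.05, namely *Socs2*, *Igf1*, *Igfals*, and *Cux2* with higher and *Bcl6* with lower values after FGF21. Mean *Igf1* was 183 ± 32.9 CPM (SD, n = 6) with vehicle and 245.5 ± 66.2 CPM (SD, n = 8) with FGF21, beside 338 ± 45.4 CPM in vehicle-treated controls. The log2 fold change of 0.43 (interval 0.08 to 0.77) had an unadjusted p of 0.0158 and an adjusted p of 0.704. *Igfals* averaged 59.8 ± 14.9 CPM and 81.7 ± 19.9 CPM, with a log2 fold change of 0.45 (interval 0.09 to 0.81) and an adjusted p of 0.704. *Socs2* averaged 7.18 ± 4.57 CPM with vehicle and 18.1 ± 9.54 CPM with FGF21, and its 8 treated libraries ran from 3.19 through a median of 17.0 to 34.3 CPM, with a log2 fold change of 1.34 (interval 0.47 to 2.21) and an adjusted p of 0.638. *Cish*, the other feedback gene, averaged 9.47 ± 3.00 and 14 ± 3.08 CPM, and its log2 fold change of 0.56 had an interval from -0.06 to 1.19. Per library and per length, *Socs2* stood at 0.289 to 0.997 times *Cish* with vehicle, median 0.425, and at 0.279 to 1.39 times with FGF21, median 0.836.

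*Cux2* divided the FGF21-treated LmnaADKO livers. Libraries 1 to 8 had 23.4, 11.9, 0.373, 16.1, 19.3, 19.1, 0.646, and 17.9 CPM, so that 6 of them were above all vehicle-treated LmnaADKO livers, whose highest value was 5.16 CPM, and libraries 3 and 7 were within the vehicle range. None reached the lowest vehicle-treated control, at 32.4 CPM. The log2 fold change was 2.67 (interval 1.20 to 4.14), with an unadjusted p of 0.00111 and an adjusted p of 0.537 in edgeR, and DESeq2 called it with an adjusted p of 0.0391. *Bcl6* averaged 11.6 ± 6.83 CPM with vehicle and 6.55 ± 1.89 CPM with FGF21, with a log2 fold change of -0.82 (interval -1.52 to -0.13) and an adjusted p of 0.704, and without vehicle-treated library 5 the value was -0.45. *Ghr*, *Jak2*, *Stat5a*, and *Stat5b* had log2 fold changes of -0.02, 0.01, -0.18, and -0.02, and the widest of their intervals, that of *Stat5a*, ran from -0.55 to 0.19.

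FGF21-treated LmnaADKO library 3 had the lowest value of its group for 6 of the 10 genes, *Ghr*, *Socs2*, *Cish*, *Igf1*, *Igfals*, and *Cux2*. Its *Igf1* of 119 CPM and *Igfals* of 35.2 CPM lay below all 6 vehicle-treated LmnaADKO livers. The same library had the highest cholangiocyte marker sum, 241 CPM against 50.3 to 93.3 CPM in the rest of its group. It also had the highest stellate cell marker sum, 163 CPM, and the lowest hepatocyte marker sum, 66200 CPM. Without library 3 the FGF21 contrast in LmnaADKO livers gave log2 fold changes of 2.86 for *Cux2* (adjusted p of 0.0435 in edgeR), 0.56 for *Igfals* (0.0617), 1.5 for *Socs2* (0.0717), and 0.53 for *Igf1* (0.0916). *Cux2* thus passed the threshold there, as 1 of 61 genes called among all 23972. The library was singled out by its low values of these same genes. Leaving it out raises their fold changes by construction and is no separate support for them. Library 7 differed in another way, with the lowest *Jak2*, *Stat5a*, and *Stat5b* and the highest *Ghr* and *Igf1* of the group, the latter at 337 CPM, and it is of those that stood apart by gene length.

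**Figure D3:**
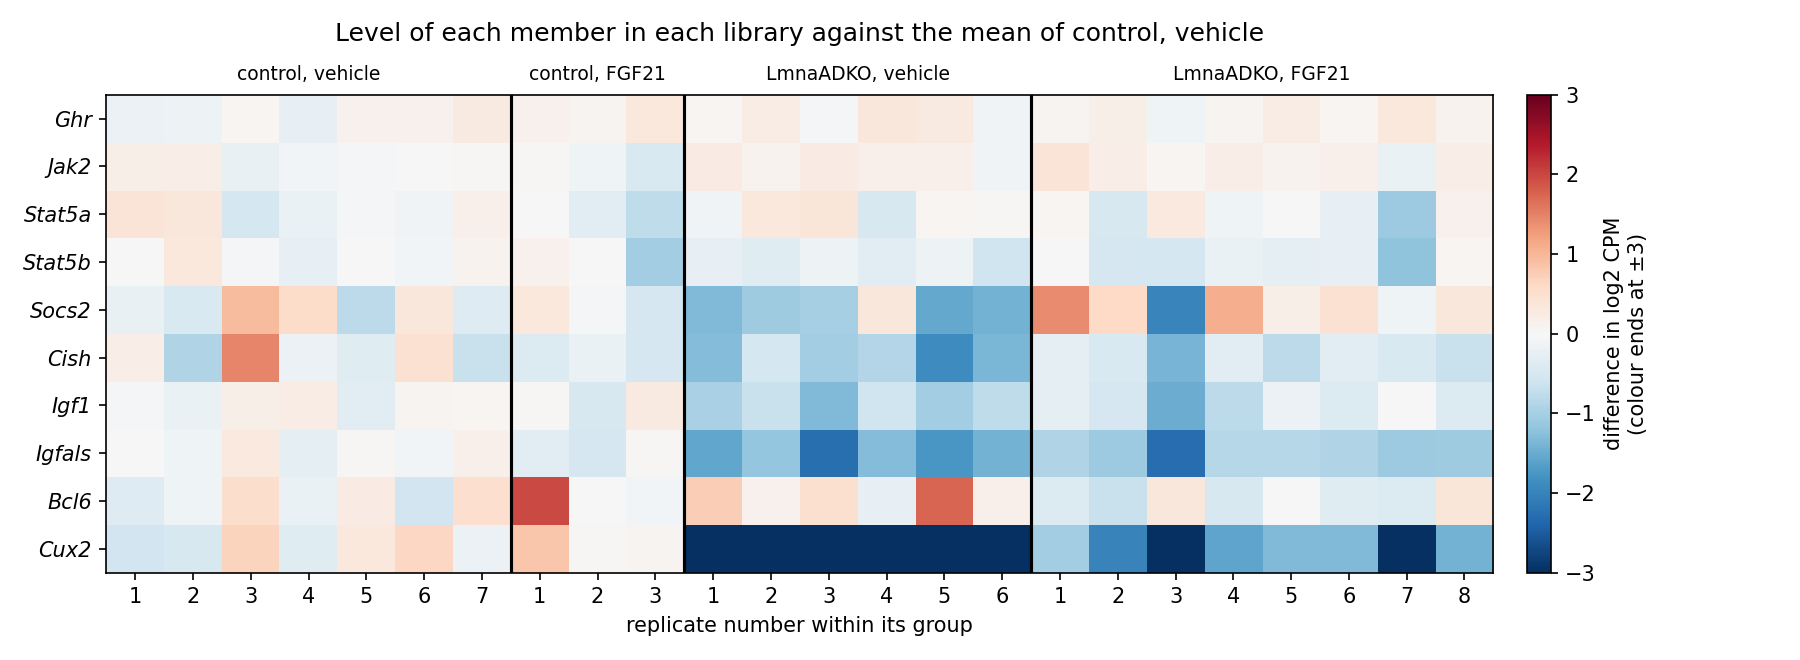
Difference in log2 CPM of each gene (rows) in each of the 24 libraries (columns, by replicate number in 4 groups) from the mean of vehicle-treated controls, blue for lower and red for higher, with the colour ending at 3 in either direction. *Cux2* is at the blue end in all 6 vehicle-treated LmnaADKO livers and in FGF21-treated libraries 3 and 7, and library 3 is blue in *Socs2*, *Cish*, *Igf1*, and *Igfals* as well.

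In controls, FGF21 against vehicle had 13 calls among all genes (0.0542%) and none among the 10 by edgeR or DESeq2. *Igf1* averaged 338 ± 45.4 CPM (SD, n = 7) with vehicle and 331 ± 83.4 CPM (SD, n = 3) with FGF21, with a log2 fold change of -0.03 (interval -0.47 to 0.41). *Igfals* had -0.26 (interval -0.72 to 0.20) and *Cux2* 0.29 (interval -1.24 to 1.81) as log2 fold changes. *Bcl6* was the 1 member of 10 with an unadjusted p under 0.05, beside 6.16% of all genes, at 0.93 with an adjusted p of 0.771, and it rested on control library 1 at 29.2 CPM, without which the log2 fold change was -0.09. The difference between the genotypes in the effect of FGF21, taken as an interaction, was called for 1 gene of all (0.00417%) and for no member. Unadjusted p-values under 0.05 were found for 4.86% of all genes and for 5 members. Of these, *Cux2* (2.39), *Socs2* (1.49), *Cish* (1.13), and *Igfals* (0.71) had a more positive log2 fold change with FGF21 in LmnaADKO livers, and *Bcl6* (-1.76) a more negative one. Their adjusted p-values ran from 0.933 to 0.984. Without FGF21-treated control library 1 the value of *Bcl6* was -0.73. Without vehicle-treated control library 3, of those that stood apart, the value of *Cish* was 0.74. With any single library left out, *Cux2*, *Socs2*, and *Igfals* had at least 2.17, 1.28, and 0.6. The treatment and genotype contrasts share libraries, so these values are not independent of those above.

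Genes of the liver that respond to the pattern of growth hormone were described by 2 lists chosen with earlier results of these data known. Of 23 female-biased genes, 16 were called lower and 0 higher in vehicle-treated LmnaADKO livers, beside 3.36% of all genes called lower, with a list median log2 fold change of -1.63. With FGF21 in both genotypes, 10 were called lower and 0 higher, beside 1.26%, with a median of -1.47. *Prlr*, the prolactin receptor, averaged 276 ± 46.8 CPM in vehicle-treated controls and 94.0 ± 18.9 CPM in vehicle-treated LmnaADKO livers, without overlap. *Cyp2c69*, of the cytochrome P450 family, had 40.0, 252, and 349 CPM (lowest, median, highest) in controls and 0.940, 1.92, and 7.21 CPM in LmnaADKO livers, with a log2 fold change of -6.40. *Cyp3a41a* was variable among controls, from 0.737 CPM in library 4 to 1604 CPM in library 5, and it was at most 4.15 CPM in LmnaADKO livers. *Cyp3a16*, *Cyp3a41b*, and *Cyp3a44* were at or under 3 counts in every vehicle-treated LmnaADKO library, which makes them at least 217-fold, 246-fold, and 56.8-fold lower on average than in controls, although control library 4 itself had 2 counts of *Cyp3a16* and counting could mix near-identical *Cyp3a* genes. Without control library 5, the highest in *Cyp3a16* (104 CPM) and in *Cyp3a41b* (177 CPM), the bounds of these genes were 126-fold and 69.1-fold.

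After FGF21 the female-biased genes of LmnaADKO livers had positive log2 fold changes in 23 of 23 cases. Their median was 0.53, beside 0.004 over all genes. None was called by edgeR, and 6 of 23 were at an unadjusted p under 0.05, all higher, beside 6.71% of all genes. *Cyp3a16*, *Cyp3a41b*, and *Cyp3a44* had at most 3, 2, and 3 counts with vehicle and 17, 15, and 7 with FGF21, so their signs carry little weight. The 23 values come from the same libraries and are not independent. Hepatocyte markers had higher values in the same contrast, with a median log2 fold change of 0.385 over 7 genes, of which *Apoa1* (0.73), *Cps1* (0.55), and *Serpina1c* (0.39) were at an unadjusted p under 0.05 and none was called. Their sums ran from 67000 to 102000 CPM with vehicle and from 66200 to 140000 CPM with FGF21, and the median cholangiocyte marker sum was 115 CPM with vehicle and 63.8 CPM with FGF21. The part of these markers in the values of the female-biased genes and of the 10 members after FGF21 was not tested. *Cyp2c69* had 0.581, 11.3, and 28.9 CPM (lowest, median, highest) in the treated LmnaADKO livers, which is below its lowest control value of 40.0 CPM. In controls 18 of the 23 had positive values, with a median of 0.21. Without vehicle-treated control library 6, 15 female-biased genes were called lower with vehicle.

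Male-biased genes did not move as 1 group. Only 12 of the 21 averaged a log2 CPM of at least 0. Others, such as *Mup7* and *Cyp4a12b* with at most 3 and 8 counts in any library, could hardly be called. Such genes still count in the totals and medians of the list. With vehicle 5 of 21 were called higher in LmnaADKO livers (*Mup20*, *Cyp2d9*, *Cyp4a12a*, *Elovl3*, and *Gstp1*) and 4 lower (*Serpina1e*, *Mup11*, *Mup12*, and *Egfr*), beside 5.12% of all genes called higher and 3.36% lower, with a median log2 fold change of -0.21, or -0.19 with *Mup12* at its bound. *Mup12* had at most 9 counts in a control and 2 in an LmnaADKO library, which bounds its difference only at 1.14-fold or more, under the fold of a call. *Cyp2d9*, a male-biased P450, averaged 41.2 ± 12.2 CPM in controls and 246 ± 67.4 CPM in LmnaADKO livers, a log2 fold change of 2.58. *Mup20*, a major urinary protein, had 8.56, 40.5, and 302 CPM in controls and 512, 851, and 1396 CPM in LmnaADKO livers, a log2 fold change of 3.59. *Elovl3*, a fatty acid elongase, rose by 2.08 on the log2 scale, and *Serpina1e*, a protease inhibitor, fell by 2.52. *Mup11* and *Mup12* belong to a family of near-identical genes whose reads counting can divide wrongly. With FGF21 in both genotypes, *Cyp2d9* and *Cyp4a12a* were called higher and none lower, beside 1.61% and 1.26% of all genes, at a log2 fold change of 2.63 for *Cyp2d9*. *Cyp4a12a* had 0 counts in all 3 FGF21-treated controls, which makes it at least 6.53-fold higher on average in LmnaADKO livers, where it averaged 1.02 CPM.

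**Figure D4:**
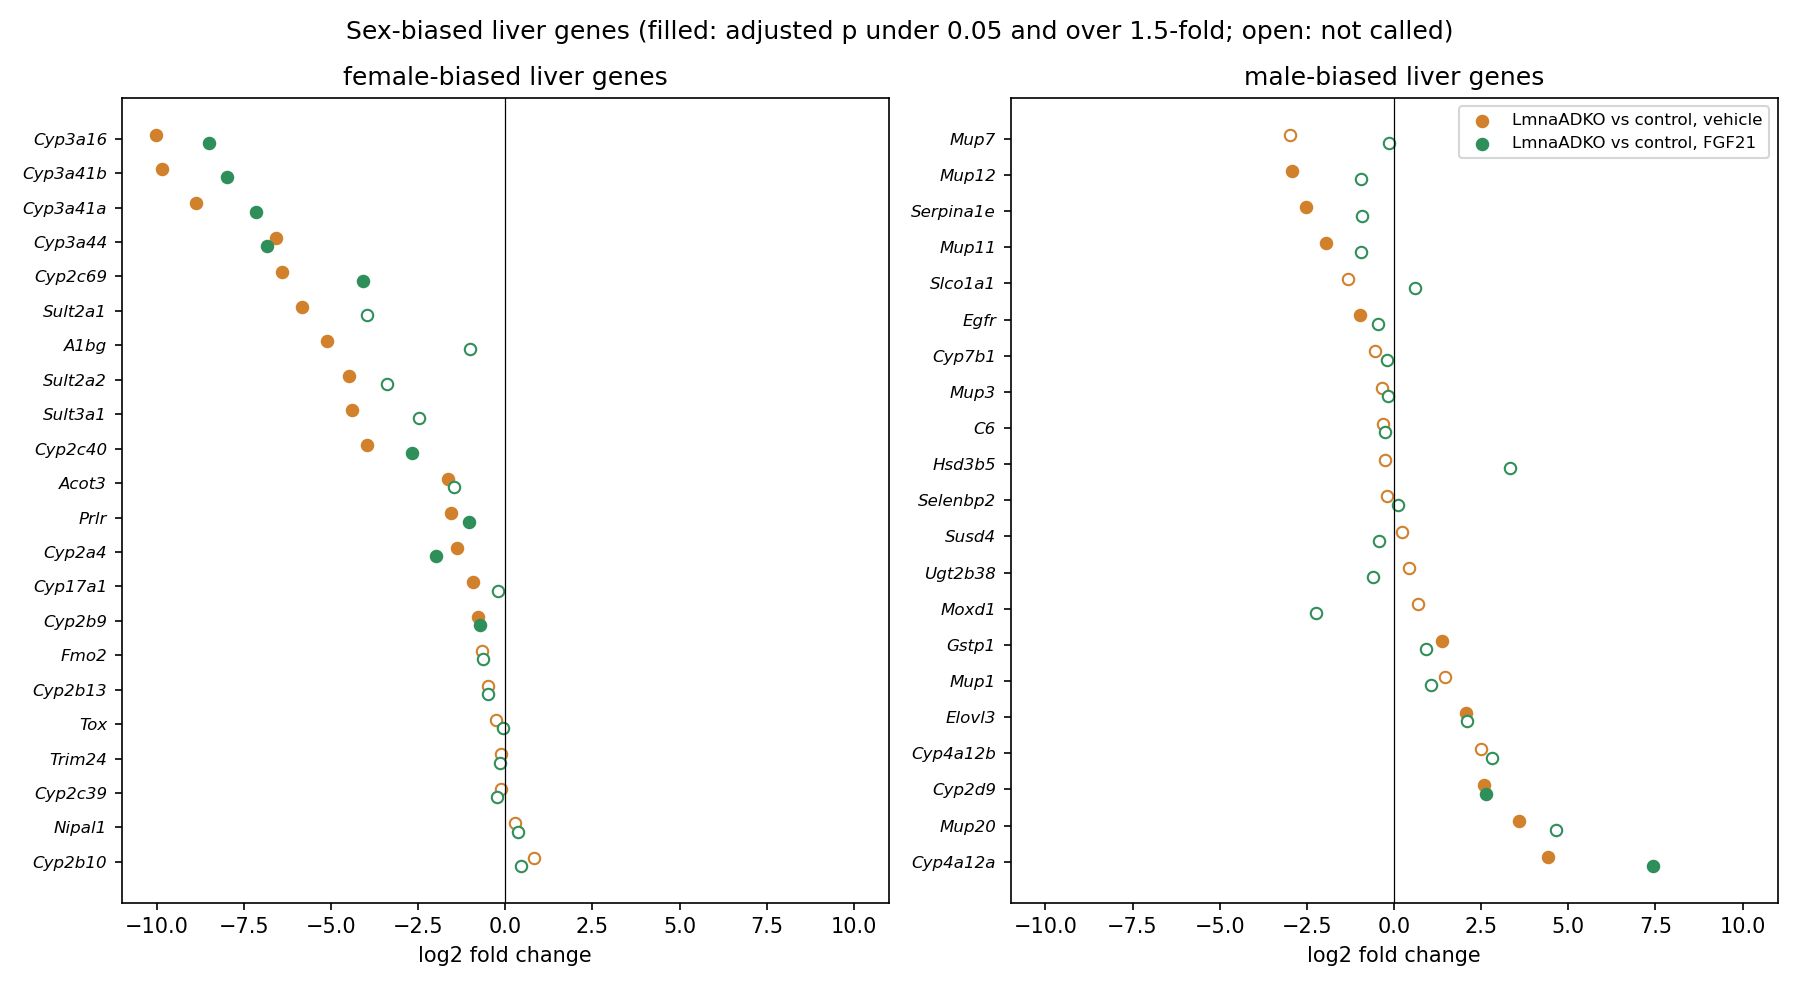
Fitted log2 fold changes (horizontal axis) of 22 of the 23 female-biased (left) and the 21 male-biased (right) liver genes in LmnaADKO against control livers, orange for vehicle and green for FGF21, with filled points for calls. Filled points of the female-biased list, 15 orange and 9 green, lie left of 0, whereas those of the male-biased list lie on either side. Values of genes at or near 0 counts in a group, such as *Cyp3a16*, depend on the fit and are not bounds.

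The other genes of the pathway are given beside 3.36% of all genes called lower and 5.12% called higher with vehicle, and 1.26% and 1.61% with FGF21. Of 14 IGF system genes in the table, *Igfbp2* and *Igfbp4*, which code for serum binding proteins of the IGFs, were called lower with vehicle and with FGF21. The other 12 were not called, but only 9 of the 14 averaged a log2 CPM of at least 0, and genes below that could hardly be called. *Igfbp2* averaged 623 ± 256 CPM in vehicle-treated controls and 59.8 ± 30.5 CPM in vehicle-treated LmnaADKO livers without overlap, a log2 fold change of -3.38 with an adjusted p of 8.94e-06. With FGF21 it was at 593, 955, and 1002 CPM in controls (sorted) and at 31.9, 135, and 165 CPM (lowest, median, highest) in LmnaADKO livers, a log2 fold change of -2.83. *Igfbp4* differed by -0.71 with vehicle and by -0.67 with FGF21. Of 11 signal partners of the receptor, *Irs2*, an adaptor shared with the insulin receptor, was called lower with vehicle at -0.92, from 20.7 ± 3.74 to 10.95 ± 2.38 CPM, and none was called with FGF21. None of 12 other negative regulators, which include the remaining SOCS genes and the phosphatases, was called in either comparison by edgeR, with 1 lower at an unadjusted p under 0.05 in each. Of 6 hepatocyte factors known to act with STAT5, *Onecut1* (-1.23) and *Foxa2* (-0.80) were called lower with vehicle and none with FGF21. *Foxa2* averaged 31.85 ± 11.7 CPM (SD, n = 7) in vehicle-treated and 18.96 ± 0.2495 CPM (SD, n = 3) in FGF21-treated controls, beside 18.3 ± 1.499 CPM (SD, n = 6) and 21.4 ± 6.20 CPM (SD, n = 8) in vehicle- and FGF21-treated LmnaADKO livers. *Onecut1* averaged 6.59 ± 3.53 and 2.36 ± 1.36 CPM in the control groups and 2.81 ± 1.37 and 3.52 ± 1.15 CPM in the LmnaADKO groups. The FGF21-treated controls thus had the lower means of the controls for both genes, and 4 of the 6 factors were lower at an unadjusted p under 0.05 for FGF21 in controls, with 0 called.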

How the data were processed

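Bulk liver RNA was sequenced from 24 mice. The authors deposited whole-number counts per gene for 23972 Ensembl genes, not normalized. The submitters' processing notes name cutadapt 4.8, FastQC 0.11.8, STAR 2.7.8a, RSEM 1.3.3, and GRCm38 without giving roles, so the counts may be rounded estimates that divide reads among similar genes. Per the labels, libraries were polyA-selected. By the methods, Ensembl 102 was the annotation, genes with 0 counts throughout were removed, and DESeq2 was used. For 0 columns of values a sample was lacking. Libraries held 19863304 to 21510054 counts, and depth and floors (3 counts) describe counting error only.

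The quasi-likelihood test of edgeR 4.0.16 (R 4.3.3; estimateDisp, robust glmQLFit, glmQLFTest) was applied to TMM-scaled counts in 1 fit of the 4 groups over all genes, without covariates. Adjusted p-values are Benjamini-Hochberg over all genes, and a call needs an adjusted p under 0.05 and a fold change above 1.5. Intervals (95%) take the standard error and 20 residual degrees of freedom. The test was checked on simulated counts. These had no library that stands apart and no number series, so the check does not cover such features of the data. Within groups, 67 pairs of libraries differed by more than sampling noise (chi-square per degree of freedom 14.1 to 196). Positions come from GENCODE M21 (GRCm38), in which 23926 genes were found, and promoter sequences are from RefSeq (GRCm38.p6). P-values measure the spread between mice as the labels number them.

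The 10 genes, all gene lists, and the tests were chosen with earlier results of these data known. Named genes are the 10, *Lmna* and *Fgf21*, up to 4 called genes per list and contrast with the largest change, and the 3 genes nearest in pattern to *Igf1*, *Socs2*, and *Cish*. Others (*Xist*, *Prlr*, members of the *Cyp3a*, *Cyp4a*, and *Mup* families, *Gstp1*, *Egfr*, and the markers called) were named after their values were seen. Alternatives were DESeq2 1.42.0, its size factors in edgeR, filterByExpr, no fold threshold, only the groups compared, the number series of the animals (3 or 4 digits) and the slope on gene length as covariates, leaving out the 3 libraries apart, and the omission of 1 library at a time. Labels of 3 and 4 digits numbered 6 and 1 in vehicle-treated controls and 0 and 3 in FGF21-treated controls. They numbered 1 and 5 in vehicle-treated and 4 and 4 in FGF21-treated LmnaADKO livers, so the series is spread unevenly over the groups. The counts of female-biased genes under these alternatives were added after the data were examined. Of the female-biased list, 1 gene was counted but is not reported here by itself.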

Additional observations from a re-analysis of the deposited data

Results flagged for a closer look

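Of 30 sets of values, each of 1 gene in 1 group of at least 6 livers, 5 had a highest or lowest library whose gap to the next, as a share of the range on the log2 scale, passed Dixon's critical value, which chance alone does in about 1 of 20. In FGF21-treated LmnaADKO livers, library 3 was low in *Igfals* (35.2 CPM, gap 0.8294 of the range), *Cish* (7.71 CPM, gap 0.565), and *Socs2* (3.19 CPM, gap 0.544). These 3 flags come from the same library, and their joint origin was not tested. That library also had the highest cholangiocyte marker sum, 241 CPM, and the highest stellate cell marker sum, 163 CPM. In the same group, library 7 was low in *Stat5b* (24.9 CPM, gap 0.537). In vehicle-treated LmnaADKO livers, library 4 was high in *Socs2* (16.4 CPM, gap 0.707).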

How the results depend on the processing

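No paired analysis was possible because the labels give each library its own animal number and no number is shared between groups. With vehicle, the 4 members called became 5 in DESeq2, with *Socs2*, and 3 with the number series as a covariate, without *Cish*, and none of the 4 changed sign under any alternative run. With FGF21, the 1 member called (*Igfals*) became 2 in DESeq2 (with *Bcl6*), 2 after filterByExpr, and 2 with the length slope added to the fit (both with *Cux2*). It became 0 with only the groups compared, 0 with the number series, and 0 without the 3 libraries apart. Leaving out 1 library gave 0 (FGF21-treated control 3) to 2 (FGF21-treated LmnaADKO 7). For FGF21 against vehicle in LmnaADKO livers the 0 members called became 1 in DESeq2 (*Cux2*), and leaving out 1 library gave 0 to 1, the latter without FGF21-treated LmnaADKO library 3. In controls and for the interaction the count stayed at 0 in every alternative run. The cause of these changes was not tested.

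Members whose direction turned were not called in the contrast concerned. Without the 3 libraries apart, *Stat5a* had -0.04 with vehicle, *Stat5b* had 0.04 and *Socs2* 0.23 for FGF21 in controls, and *Stat5b* had 0.07 for FGF21 in LmnaADKO livers. With the number series, *Ghr* had 0.02 between genotypes with FGF21, 0.04 for FGF21 in LmnaADKO livers, and 0.01 for the interaction, while *Socs2* had 0.12 in controls and *Jak2* -0.03 in LmnaADKO livers. With the length slope, *Stat5b* had 0.04 in LmnaADKO livers. Leaving out 1 library gave, between genotypes, *Stat5a* -0.05 to 0.11 with vehicle and *Ghr* -0.1 to 0.01 and *Stat5b* -0.39 to 0.11 with FGF21. For FGF21 in controls it gave *Stat5b* -0.44 to 0.05, *Socs2* -0.37 to 0.06, *Igf1* -0.21 to 0.15, *Bcl6* -0.09 to 1.26, and *Cux2* -0.03 to 0.43. For FGF21 in LmnaADKO livers it gave *Ghr* -0.06 to 0.03, *Jak2* -0.04 to 0.05, and *Stat5b* -0.08 to 0.08. The interaction ranged from 0 to 0.38 for *Stat5a* and from -0.07 to 0.42 for *Stat5b*. The cause was not tested.

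Over all genes, the 2033 called with vehicle became 3623 by adjusted p alone. The 690 called between genotypes with FGF21 became 344 with only the groups compared, 402 without the 3 libraries apart, 339 without FGF21-treated control library 3, and 1149 without FGF21-treated LmnaADKO library 7. For FGF21 in controls, the 13 became 38 in DESeq2, 0 with the number series, and 3 to 26 with 1 library left out. Labels of 4 digits were held by all 3 FGF21-treated controls and 1 of 7 vehicle-treated controls, so series and treatment largely coincide there. In LmnaADKO livers, the 0 became 15 in DESeq2 and 61 without FGF21-treated library 3. The 1 interaction became 11 in DESeq2. With 3 FGF21-treated controls, comparisons with that group are the least precise.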

Other observations

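Over the 24 libraries and 9914 genes whose log2 CPM averaged 2 or more, likeness in pattern was measured as the mean absolute difference of standardised log2 CPM, for which the median over genes was 1.09 from *Igf1*. Outside the 10 members, the genes nearest to *Igf1* were *Apol9b* (0.329), *Apol9a* (0.363), and *Igtp* (0.368), the last an interferon-inducible GTPase, while among the members *Igfals* was at 0.357, nearer than *Apol9a*, and *Cux2* at 0.438. *Apol9a* and *Apol9b* are close paralogs whose reads may be divided between them wrongly. With vehicle their log2 fold changes in LmnaADKO livers were -1.54 for *Apol9a*, -1.44 for *Apol9b*, and -0.98 for *Igtp*, with adjusted p-values of 2.19e-05, 3.64e-05, and 0.000808 in edgeR.

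Nearest to *Socs2* outside the members were *Zfp113* (0.429), *Gm5424* (0.4926), and *Cyp2c70* (0.501), the last a P450 of muricholic acid synthesis. *Cish* was nearest in pattern to *Foxq1* (0.452), *Phlda1* (0.458), and *Tgm1* (0.478), none of them a gene of the lists used here. From *Socs2* to *Cish* the difference was 0.643. The points share the 4 groups and library depth, so these values describe the libraries and were given no test. Vehicle-treated control library 6, with 1 *Xist* count, had 8.56 CPM of *Mup20*, the lowest value of its group.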
